A study of Mus musculus with 6 samples.

Results

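Evx2 and the 9 genes of the Hoxd cluster were followed in RNA of the mouse ganglionic eminence at E13.5, a stage counted in days of embryonic life. They are 10 genes of the 55416 in the deposited table, each found by its symbol. The ganglionic eminence is the part of the ventral forebrain where GABAergic neurons are born. RNA was sequenced from 3 wild-type libraries and from 3 libraries labelled as double knockouts of Dlx1 and Dlx2, with the wild types described as littermate controls. Dlx1 and Dlx2 are genes that encode DLX homeodomain proteins and act in this tissue. The kind of null allele, the strain and the number of embryos per library were not given in the sources used here, so p-values measure the spread between libraries. Evx2 was chosen by its read counts in these same libraries, which differed between the genotypes, and the Hoxd genes because they adjoin it. For this reason the values of these 10 genes, fitted folds and counting intervals included, are given as a description with no p-value.

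Hox genes encode homeodomain transcription factors that lie in 4 clusters and give positional identity to the hindbrain, spinal cord, trunk and limbs. The forebrain is known as a territory in which they are silent. Evx2, a relative of the Drosophila gene even-skipped, sits at the 5′ end of the Hoxd cluster, next to Hoxd13 and transcribed on the opposite strand, and in limbs and genitalia it is known to share distant enhancers with the 5′ Hoxd genes. Evx1, its paralogue, holds the same place at the Hoxa cluster. In the spinal cord both Evx genes mark commissural interneurons of the V0 class.

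The homeobox, the 180 bases that encode the DNA-binding homeodomain, is shown for Evx2, for its paralogue and for its neighbour Hoxd13, because it is where reads of related genes would be most easily confused. The sequences were taken from GENCODE M21 transcripts. Capitals in Evx2 mark the conserved stretch of 4 codons by which the homeobox was located, and capitals in the other sequences mark bases that differ from Evx2 at the same position.
Evx2 homeobox: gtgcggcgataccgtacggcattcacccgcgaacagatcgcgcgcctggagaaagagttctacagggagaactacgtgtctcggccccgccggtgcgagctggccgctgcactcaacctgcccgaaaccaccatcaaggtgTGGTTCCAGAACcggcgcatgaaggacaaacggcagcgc
Evx1 homeobox: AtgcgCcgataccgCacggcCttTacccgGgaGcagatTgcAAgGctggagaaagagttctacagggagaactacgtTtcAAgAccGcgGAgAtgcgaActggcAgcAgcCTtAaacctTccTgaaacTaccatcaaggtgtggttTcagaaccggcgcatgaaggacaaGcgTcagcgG
Hoxd13 homeobox: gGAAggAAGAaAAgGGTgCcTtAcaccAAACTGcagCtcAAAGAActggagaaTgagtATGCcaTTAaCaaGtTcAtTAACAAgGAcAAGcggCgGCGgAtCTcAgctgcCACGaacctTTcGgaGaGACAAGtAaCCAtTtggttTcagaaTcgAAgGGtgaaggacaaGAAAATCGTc
Evx1 differed from Evx2 at 32 of the 180 bases (82.2% identity), and Hoxd13 at 93 (48.3%). Among the Hoxd genes the identity with Evx2 ran from 47.2% for Hoxd11 to 62.2% for Hoxd3. The longest exact run that the Evx2 transcript shared with the Evx1 transcript was 32 bases, and the longest with any Hoxd transcript was 17 bases, with Hoxd12. None of the 4142 stretches of 50 bases in Evx2 transcripts, and none of the 2434 in Hoxd13, occurred in a transcript of another gene in that annotation.

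The 250 bases before the annotated start are shown for Evx2 and Hoxd13, the neighbouring pair whose reads differed between the genotypes. They come from RefSeq promoters on GRCm38.p6, while the counts were made on GRCm39. Capitals mark TAAT on either strand (read as ATTA on the other), the short core that many homeodomain proteins, DLX included, bind.
Evx2 promoter (chr2:74659558-74659807, minus strand): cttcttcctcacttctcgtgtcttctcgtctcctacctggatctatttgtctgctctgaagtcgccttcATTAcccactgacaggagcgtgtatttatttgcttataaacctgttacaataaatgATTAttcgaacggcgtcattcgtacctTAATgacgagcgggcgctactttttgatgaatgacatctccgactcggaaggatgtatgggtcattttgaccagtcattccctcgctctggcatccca
Hoxd13 promoter (chr2:74667975-74668224, plus strand): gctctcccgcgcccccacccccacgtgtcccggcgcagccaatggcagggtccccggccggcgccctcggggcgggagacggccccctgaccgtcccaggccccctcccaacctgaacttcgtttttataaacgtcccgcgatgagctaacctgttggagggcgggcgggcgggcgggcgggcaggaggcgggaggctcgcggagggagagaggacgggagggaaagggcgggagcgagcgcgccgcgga
The Evx2 window held 3 TAAT cores and the Hoxd13 window none. Extended to 50 bases after the start, the windows held 5 and none. A core was found in 54.9% of 32841 RefSeq promoter windows of this length, and 17.3% of windows held at least as many as Evx2. The longer palindrome TAATTA, which contains the core on both strands, occurred in neither window and in 4.84% of all windows. The 2 windows also differed in base composition, with a GC content of 45.6% for Evx2 and 74.4% for Hoxd13 against a median of 52.4%. A predicted RefSeq transcript of Evx2 starts further upstream and is not shown.

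Evx2 (ENSMUSG00000001815) had 0, 2 and 0 reads in wild-type replicates 1 to 3. In double knockout replicates 1 to 3 it had 163, 171 and 224 reads. All 3 double knockout libraries thus carried the transcript and no wild-type library had more than 2 reads of it. On the CPM scale (the read count as a share of the effective library size), Evx2 was at 2.51, 2.97 and 3.23 CPM in the double knockout, with a mean of 2.90 ± 0.363 CPM (SD, n = 3). A count of 0 allows a level of up to 3 reads, or 0.0433 to 0.0520 CPM in these libraries. The summed reads, 558 against 2, gave a ratio of 272 with a 95% exact binomial interval of 74.9 to 2251, which covers counting error only, because reads carry no molecular identifiers. Without wild-type replicate 2, the only wild-type library with any Evx2 read, the level was at least 119-fold higher in the double knockout, against a floor of 3 reads over the group. The fitted log2 fold change was 7.84 (SE 0.49), a value that depends on the prior count because wild-type reads were so few.

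The level reached by Evx2 was modest. Of 23628 genes that passed the filter on low counts, 42.4% had a lower mean in the double knockout. Evx2 passed that filter only through the double knockout libraries, where it was high. Per kilobase of exon, Evx2 was at 0.692 ± 0.0867 CPM in the double knockout (SD, n = 3). Its spread between double knockout libraries, a coefficient of variation of 12.5%, was close to the median of 13.7% over the 3441 genes within 2-fold of its mean. Fewer cells with much Evx2 RNA and more cells with little cannot be told apart in tissue RNA.

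**Figure D1:**
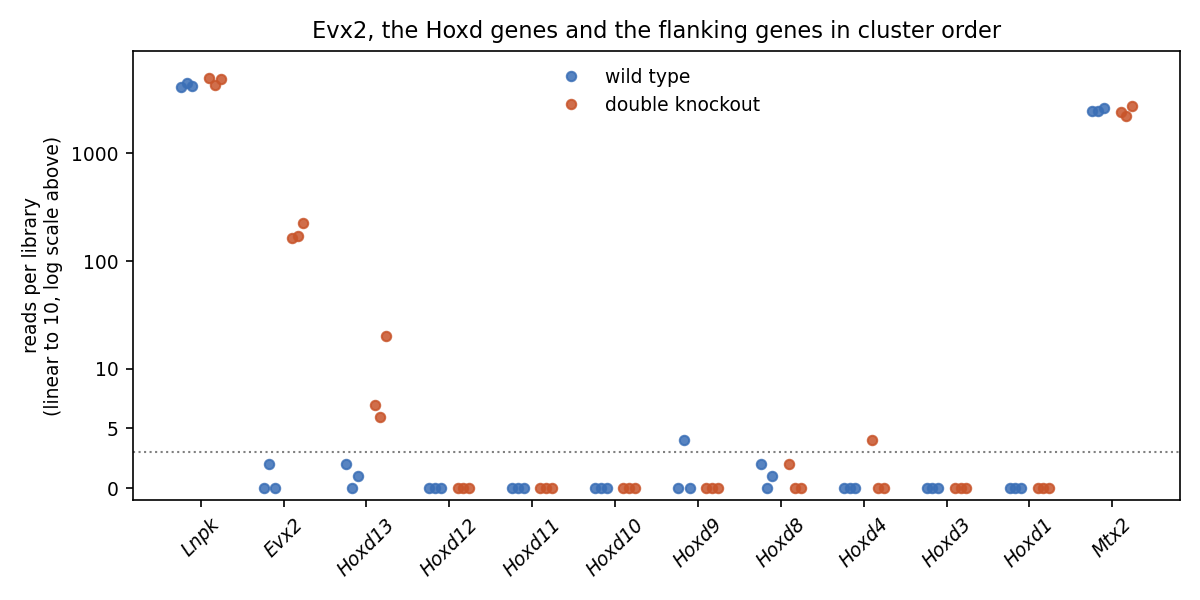
Reads per library (vertical axis, linear to 10 and logarithmic above) of Evx2, the 9 Hoxd genes and the flanking genes Lnpk and Mtx2, with 1 point per library, wild type in blue and double knockout in orange, and a dotted line at 3 reads. Evx2 stood at 163 to 224 reads and Hoxd13 at 6 to 20 in the double knockout, while the other Hoxd genes had at most 4 reads in any library and the flanking genes had at least 2237 in both genotypes.

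Hoxd13 (ENSMUSG00000001819), the Hoxd gene nearest to Evx2, specifies digits and the genital tubercle in the embryo. It had 2, 0 and 1 reads in the wild-type libraries and 7, 6 and 20 reads in the double knockout libraries. The groups did not overlap, but the counts were too low for the filter, and the gene was not in the fit. The groups also did not overlap for 19.5% of the tested genes, and for 9.3% with the double knockout higher. The ratio of summed reads, 33 against 3, was 10.7, with a 95% exact binomial interval for counting error of 3.36 to 54.6. It was 6.61 (1.82 to 36.2) without double knockout replicate 3, which held most of the reads, and 22.1 (3.70 to 898) without wild-type replicate 1. Without wild-type replicate 2 it was 7.04 (2.21 to 35.9).

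Per kilobase of exon, Hoxd13 was at 0.0672 ± 0.0424 CPM in the double knockout (SD, n = 3), so Evx2 was 10.3-fold above it. Hoxd13 reads amounted to 4.29%, 3.51% and 8.93% of the Evx2 reads in double knockout replicates 1 to 3. In the library with the most Evx2 reads, replicate 3, Hoxd13 reads were also the most numerous.

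The other 8 Hoxd genes had at most 4 reads in any library of either genotype. Hoxd12, Hoxd11, Hoxd10, Hoxd3 and Hoxd1 had 0 reads in all 6 libraries, so their levels were at most 0.0433 to 0.0520 CPM per library. Of these, Hoxd10 to Hoxd12 belong to the 5′ group that is active with Hoxd13 in distal limbs, and Hoxd1 and Hoxd3 to the 3′ group of the hindbrain and neck. Hoxd9 had 4 reads in wild-type replicate 2 and 0 elsewhere. Hoxd8 had 2, 0 and 1 reads in the wild type and 2, 0 and 0 in the double knockout, and Hoxd4 had 4 reads in double knockout replicate 1 and 0 elsewhere. Summed over the 8 genes there were 7 reads in the wild type and 6 in the double knockout. None of the 9 Hoxd genes passed the filter, so none entered the fit, in which 2.68% of the tested genes were called at an adjusted p under 0.05, 1.34% higher and 1.34% lower in the double knockout. Of the 10 genes, Evx2 alone entered it, through its double knockout counts.

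The annotation bears unequally on these zeros. Exons of Evx2, Hoxd13, Hoxd12, Hoxd9, Hoxd8 and Hoxd1 overlap no other gene in GENCODE M21, on either strand. For Hoxd3 and Hoxd4, 62.3% and 52.3% of the exonic bases also belong to another gene on the same strand, and reads there may have been left unassigned. The counts of these 2 genes are uncertain for that reason, as are those of Hoxd11 and Hoxd10 over 10.8% and 5.73% of their bases. Of 10 further genes annotated between Evx2 and Hoxd1, 9 were in the table. Haglr, a long non-coding RNA that starts beside Hoxd1, had 1 read in wild-type replicate 3, and the antisense gene Gm28793 had 1 read in double knockout replicate 3. The other 7, among them Hoxd3os1 and the microRNA gene Mir10b, had 0 reads in all 6 libraries.

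The other 3 Hox clusters were as silent as most of the Hoxd cluster. The 30 Hoxa, Hoxb and Hoxc genes together had 10, 13 and 15 reads in the wild-type libraries and 12, 13 and 27 in the double knockout libraries. No gene among them passed the filter, 11 had no read in any library, and the highest count in a library was 7, for Hoxa3 in double knockout replicate 3. Hoxa3, Hoxb4 and Hoxb9 had the highest means of the 30. Hoxa3 had 4, 0 and 0 wild-type reads against 1, 0 and 7, and Hoxb4 had 0, 0 and 4 against 2, 0 and 3, so both overlapped between genotypes. Hoxb9 had 0 reads in every wild-type library and 2, 5 and 1 in the double knockout. It was the only gene of the 30 whose groups did not overlap. Groups did not overlap for 19.5% of tested genes, 9.3% with the double knockout higher, so Hoxb9 does not stand out by this. Hoxd13, at 33 summed reads in the double knockout, stood above the 8 reads that were the highest sum among the 30 genes. Evx1, the paralogue of Evx2 (ENSMUSG00000005503), had 1, 3 and 2 reads in the wild type and 0, 0 and 2 in the double knockout. The reads of Evx2 in the double knockout thus had no counterpart at the Hoxa cluster.

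**Figure D2:**
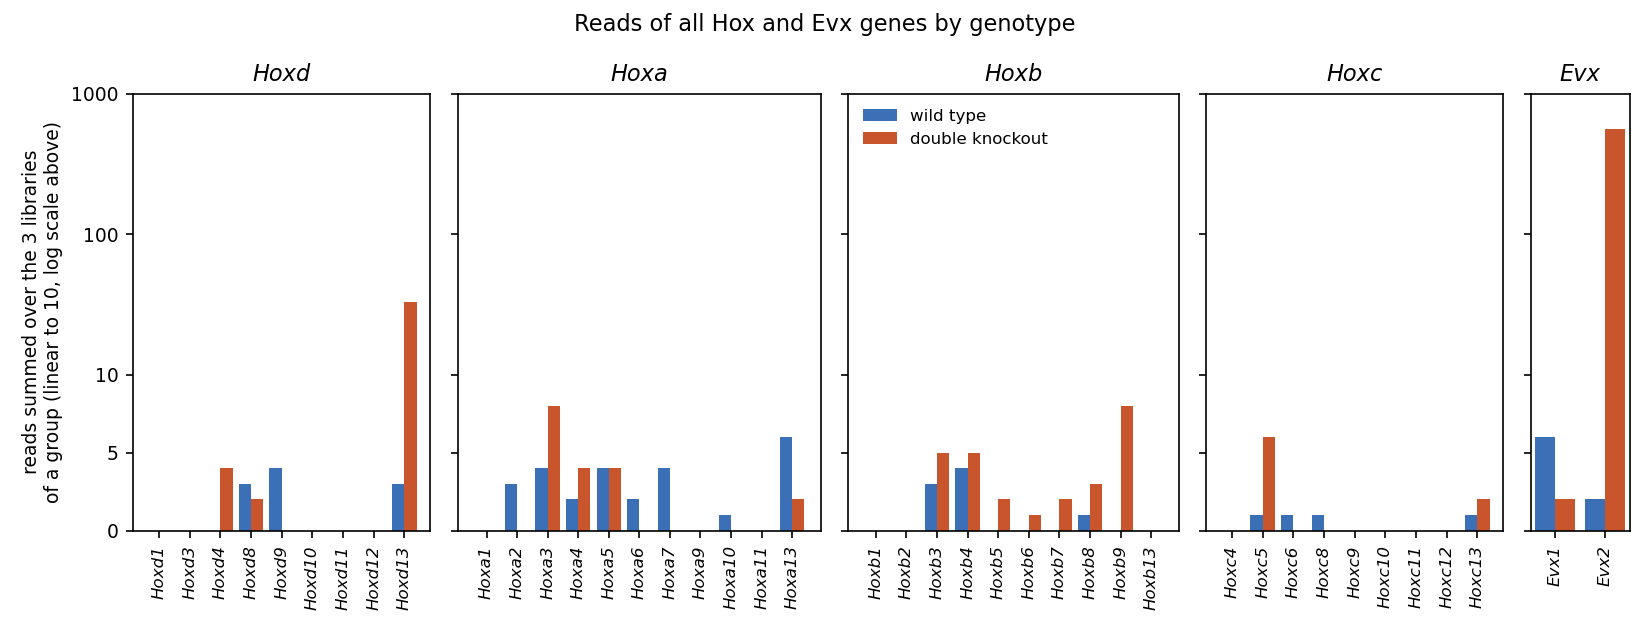
Reads summed over the 3 libraries of each genotype (vertical axis, linear to 10 and logarithmic above) for each gene of the 4 Hox clusters and for both Evx genes, with blue bars for the wild type and orange bars for the double knockout. Evx2 at 558 and Hoxd13 at 33 reads were the highest bars, and no other gene passed 8.

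Few genes of the whole table showed the pattern of Evx2. A rule of at most 3 reads in every wild-type library and at least 30 in every double knockout library was met by 2 of 55416 genes (0.00361%), and the mirrored rule by 0 genes. Evx2 was 1 of the 2. The other was 5730488B01Rik, an unclassified transcript model inside Pax5 and on its opposite strand, with 2, 2 and 3 reads in the wild type and 51, 42 and 43 in the double knockout. Of its exonic bases, 27.5% overlap exons of Pax5, so its counts are uncertain. With at least 20 reads in the double knockout the long non-coding RNA Platr26 joined them, with at least 50 reads Evx2 alone remained, and with 0 reads in every wild-type library no gene was left.

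**Figure D3:**
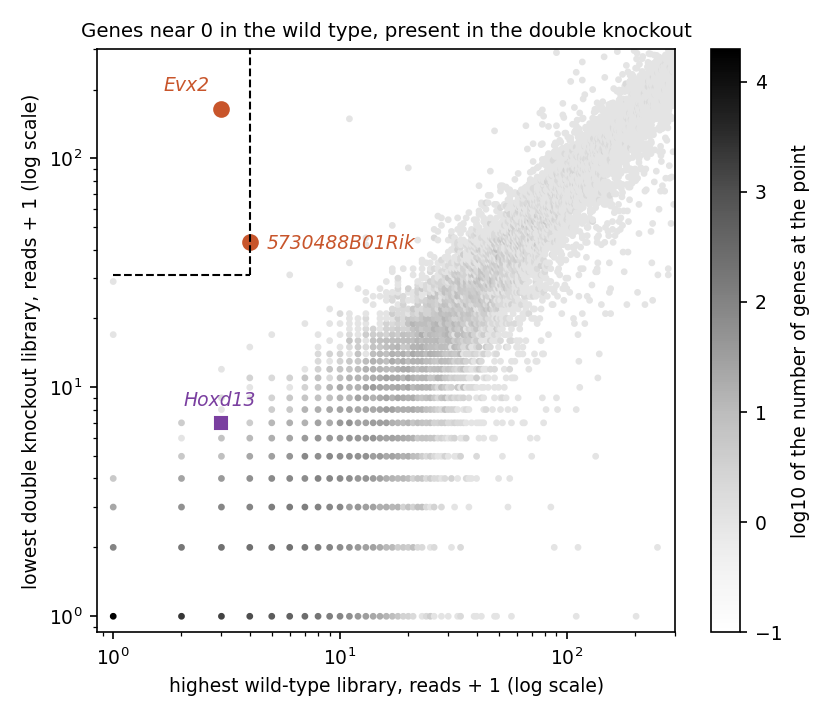
Highest read count among wild-type libraries against the lowest among double knockout libraries, each plus 1 and on logarithmic axes, for the genes below 300 reads on both, with shade for the number of genes at a point. The dashed lines bound the rule of at most 3 and at least 30 reads, inside which lie Evx2 and 5730488B01Rik, and the square marks Hoxd13.

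Likeness to Evx2 over the 6 libraries was measured as Pearson's r of log2(CPM + 0.1) over the 16486 tested genes whose mean reached 1 CPM or more. The 5 most alike were Fli1 (r = 0.997), Dlk1 (0.997), Cdc42se2 (0.996), Pros1 (0.996) and Tal2 (0.995). These values mainly describe the step between genotypes, and 17 genes had an r over 0.99. Fli1 encodes an ETS transcription factor of endothelial and blood cells, and was at 8.84, 8.56 and 8.06 CPM in the wild type and 22.8, 24.7 and 26.1 CPM in the double knockout. Dlk1, a ligand-like gene of the Notch pathway, was at 56.1 ± 2.15 and 149.6 ± 13.1 CPM (SD, n = 3). Tal2, a bHLH factor of midbrain GABAergic neurons, was at 1.05 ± 0.0538 and 5.93 ± 1.20 CPM. Cdc42se2 and Pros1 had small log2 fold changes, 0.35 (SE 0.0433) and 0.35 (SE 0.0896). With log2(CPM + 1) 2 of the 5 remained among the most alike, Fli1 and Dlk1.

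Dlx1 and Dlx2 lie on chromosome 2, as does the Hoxd cluster, and the genes in between were compared to see whether differences extended along the chromosome. Dlx2 itself had 16510, 18768 and 20100 reads in the wild-type libraries and 487, 436 and 762 in the double knockout. Dlx1 kept more reads, with 25430, 28650 and 28028 against 4861, 4373 and 6523, or 439 ± 6.12 against 81.6 ± 10.8 CPM (SD, n = 3). Metap1d, on the other side of Dlx1 and so outside the interval, was called higher, at 18.6 ± 1.21 against 29.7 ± 1.41 CPM (edgeR adjusted p 0.00234). In GENCODE M21, 63 genes lie between Dlx2 and Evx2, of which 57 were in the table and 27 were tested. Among these, 2 were called and both were higher, while 2.68% of all tested genes were called. Both were among the first 3 genes beyond Dlx2, at the far end from Evx2. Platr26, a long non-coding RNA, had 0 reads in every wild-type library and 34, 29 and 28 in the double knockout. It was at least 29.6-fold higher there, with a floor of 3 reads over the group, and its adjusted p was 0.00367 in edgeR's quasi-likelihood test. It passed the filter only through the double knockout libraries, and DESeq2, which sets aside genes of low mean, gave it no adjusted p. Itga6, which encodes the laminin receptor subunit integrin alpha 6, rose from 55.7 ± 5.20 to 84.1 ± 3.19 CPM (SD, n = 3), a log2 difference of 0.59 (SE 0.0712; edgeR adjusted p 0.00328). The median log2 fold change of the 27 genes was 0.03, and that of all tested genes was -0.0016.

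No gene close to the cluster was called. Lnpk, which encodes an endoplasmic reticulum protein and is the protein-coding gene next to Evx2, had 4139, 4557 and 4238 reads in the wild type and 4988, 4287 and 4919 in the double knockout. Scaled by library size it was at 69.2 ± 2.72 and 74.0 ± 2.98 CPM (SD, n = 3), a log2 fold change of 0.10 (SE 0.0531) with an edgeR adjusted p of 0.503. Mtx2, which encodes a mitochondrial outer membrane protein and lies beyond Hoxd1, was at 40.6 ± 2.05 and 38.7 ± 0.914 CPM, and its log2 fold change was -0.07 (SE 0.0596; edgeR adjusted p 0.721). Of the 5 nearest protein-coding genes on each side, 9 were tested and none was called by edgeR at an adjusted p under 0.05. With 2.68% of all tested genes called, none among 9 is near that share. Chrna1, the gene for the muscle acetylcholine receptor alpha subunit, did not pass the filter.

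**Figure D4:**
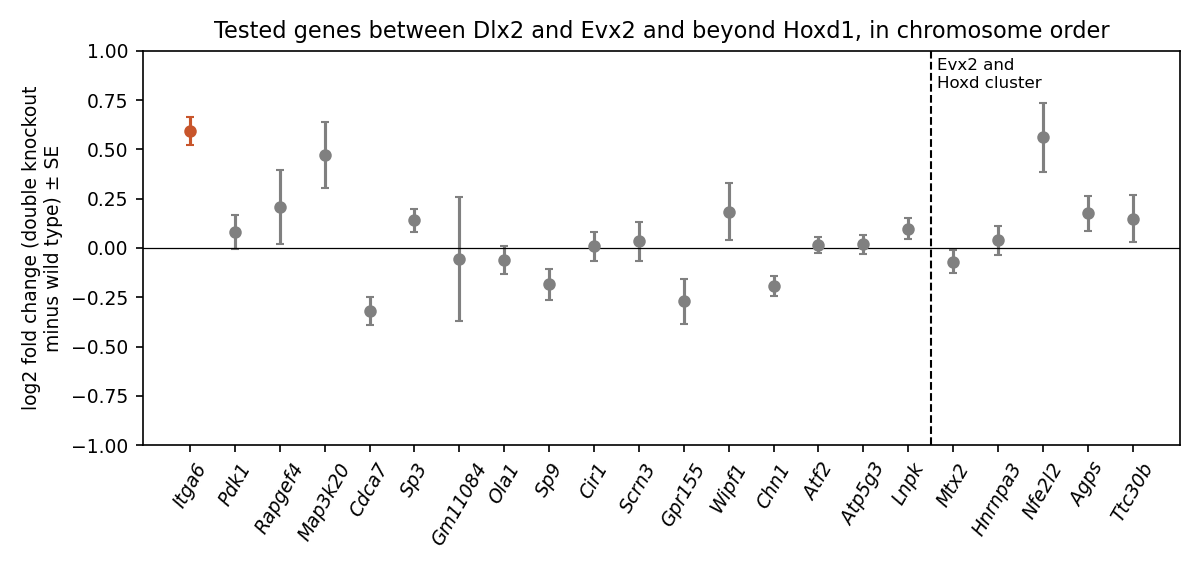
Log2 fold change, double knockout minus wild type, with its standard error, for the tested protein-coding genes from Dlx2 to the cluster and for the 5 beyond Hoxd1, in chromosome order, with the dashed line at the place of Evx2 and the Hoxd genes. Itga6, in orange, was the only called gene among those drawn, and Platr26 is left out because a group of zeros gives no finite standard error.

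HOX proteins bind DNA with partners of the TALE class, encoded by the Meis, Pbx and Pknox genes, and unlike the Hox genes these were abundant. All 9 were tested, 2 were called and both were lower, beside 2.68% of all tested genes called and 1.34% called lower, with a median log2 fold change of -0.11 over the 9. Meis2, a factor of striatal precursors, was lower, at 414 ± 23.8 CPM against 565 ± 29.2 CPM in the wild type (SD, n = 3), and its log2 fold change was -0.45 (SE 0.0656; edgeR adjusted p 0.00895). Without double knockout replicate 2 its adjusted p was 0.0502. Meis1 was at 53.7 ± 6.51 against 75.6 ± 6.14 CPM, and its log2 fold change was -0.49 (SE 0.0948; edgeR adjusted p 0.0322). It missed the threshold in 4 of the 6 edgeR fits that each left out a library (without wild-type replicate 1, 2 or 3 or double knockout replicate 1), where its adjusted p was 0.0829 to 0.120. It also missed it with total count scaling (0.0592) and with Y-linked expression as a covariate (0.108). Its counts are uncertain where Gm37818 and Gm16140 overlap its exons. Pbx2, Pbx3, Pbx4, Meis3, Pknox1 and Pknox2 had log2 fold changes between -0.22 and 0.14 and were not called.

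Genes that accompany Evx2 elsewhere in the neural tube were followed as a list of 18, which marks progenitors and neurons of the midbrain, hindbrain and spinal cord. Of these, 9 were tested, 3 were called higher and 1 was called lower, with a median log2 fold change of 0.73. Over all tested genes, 2.68% were called, 1.34% higher and 1.34% lower. Pax7, a gene of dorsal progenitors, had 13, 5 and 13 reads in the wild type and 524, 649 and 698 in the double knockout, a log2 fold change of 5.87 (SE 0.282). Pax5, a gene of the midbrain and hindbrain junction, had 38, 43 and 72 reads against 720, 592 and 1103, a log2 fold change of 3.93 (SE 0.256). Their edgeR adjusted p-values were 1.89e-05 and 1.15e-04, and the groups were far apart for both. Opposite-strand genes overlap 8.60% of the exonic bases of Pax5, so its counts are uncertain. Lhx1, a LIM homeodomain gene of interneurons, rose from 6.44 ± 0.778 to 10.7 ± 0.992 CPM (SD, n = 3), with an edgeR adjusted p of 0.0157. It missed the threshold without wild-type replicate 1 or 2 or double knockout replicate 1 or 2, at adjusted p-values of 0.0582 to 0.0774 in edgeR.

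The remaining genes of that list, named after their values were seen, were at low counts or varied between libraries. Dbx1, the progenitor gene from whose domain V0 neurons arise, had 51, 61 and 95 reads in the wild type and 162, 138 and 87 in the double knockout, and the groups overlapped. Lbx1, of dorsal spinal interneurons, had 0 reads in the wild type and 3, 3 and 12 in the double knockout. Pax8 had 0, 0 and 1 against 4, 2 and 6. The last 2 genes were below the filter and had counts like those of Hoxd13, highest in double knockout replicate 3. Gbx2 had 332, 455 and 365 reads against 619, 487 and 1089, with an edgeR adjusted p of 0.0990. En1 and Hoxb8 had at most 3 reads in any library.

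**Figure D5:**
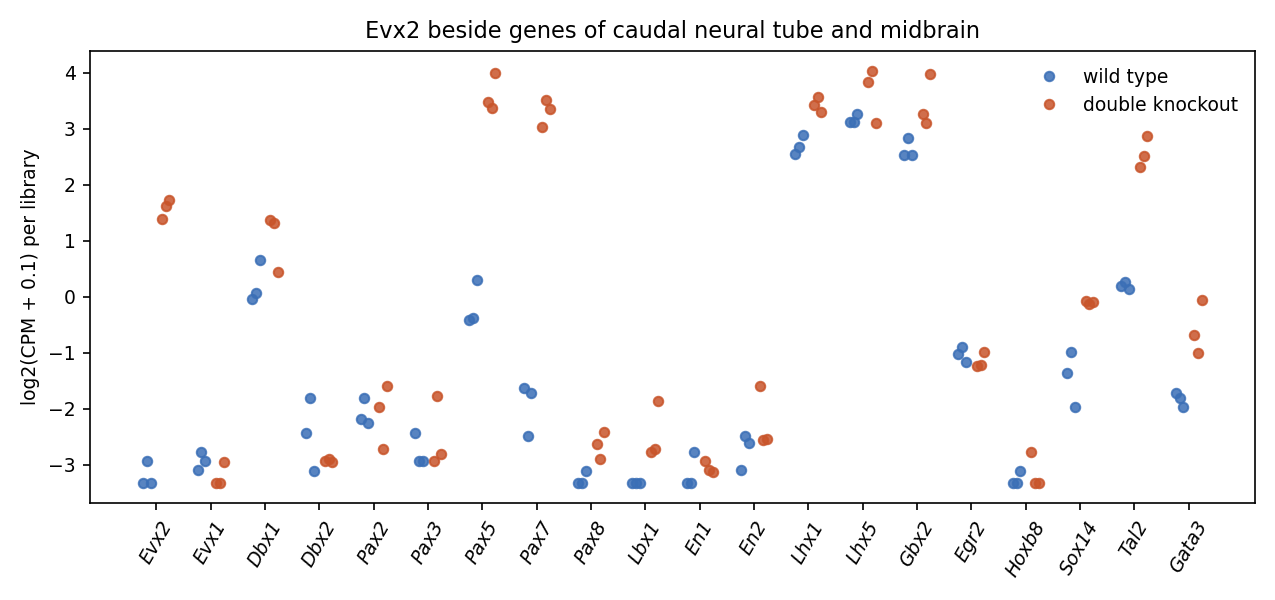
Level per library as log2(CPM + 0.1) (vertical axis) of Evx2, of genes of the caudal neural tube and of the further midbrain genes Sox14, Tal2 and Gata3, with 1 point per library, wild type in blue and double knockout in orange. Groups did not overlap for Evx2, Pax5, Pax7 and Tal2 nor, with smaller differences on this scale, for Lhx1, Gbx2, Sox14, Gata3, Pax8 and Lbx1. The same held for 19.5% of all tested genes. Evx1, En1 and Hoxb8 lay at the bottom of the scale in both genotypes.

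Marker lists for tissues that the dissected samples could hold gave these values beside Evx2. All 10 markers of the ganglionic eminence were detected, with summed levels of 1625 to 1685 CPM in the wild type and 1213 to 1421 CPM in the double knockout, without overlap. Of these 10, 5 were called lower, among them Gad1 and Gad2 of GABA synthesis, 2 were called higher and 3 were not called. Over all tested genes, 2.68% were called, 1.34% higher and 1.34% lower. The part of the ganglionic eminence markers in the Evx2 reads was not tested. The summed level of 8 midbrain markers was 2.51 to 2.77 CPM in the wild type and 25.7 to 35.0 CPM in the double knockout, without overlap, as for Evx2. Of these 8, Pax5, Pax7 and Tal2 were called higher, Sox14 and Gata3 were tested and not called (edgeR adjusted p of 0.0503 and 0.0561), and En1, En2 and Pax3 had at most 15 reads in any library. The part of midbrain cells or of midbrain-like expression in the Evx2 reads was not tested. The 10 spinal cord and hindbrain markers summed to 0.0622 to 0.171 CPM in the wild type and 0.104 to 0.432 CPM in the double knockout, and 5 of the 10 had at most 3 reads in every library. Of the 10 limb mesenchyme markers, 7 were tested and none was called, their sums were 19.3 to 24.5 and 23.2 to 27.2 CPM, and Twist2, Hand2 and Pitx1 had at most 3 reads in any library. Sums of 6 meningeal and of 6 blood markers overlapped between the genotypes, and none of these 12 genes was called. At a share of 2.68% over all tested genes, lists this short with no called gene are not a result about their genes.

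Libraries also differed in sex-linked expression, which the labels do not give. The summed level of 4 Y-linked genes was 206.5 to 213.9 CPM in wild-type replicate 1 and double knockout replicates 2 and 3, and at most 0.168 CPM in the other 3 libraries. Evx2 had 0 reads against 171 and 224 within the first set and 2 and 0 against 163 within the second. The difference in Evx2 reads was therefore present in both sets, each of which held a single library of 1 genotype, too few for a test.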

How the data were processed

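Total RNA was depleted of ribosomal RNA and made into stranded libraries, per the labels' protocols. Reads were counted per gene with featureCounts on GRCm39, per the submitters' processing notes; the aligner, annotation release, versions and strand settings were not given in the sources used here. The authors deposited whole-number counts, not normalized, with 1 column per library. Totals were 56618090 to 70114173 reads, and no 2 libraries held identical counts or agreed within sampling noise.

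Genes were filtered with filterByExpr (minimum count 10, minimum total count 15), normalized with TMM factors and tested over 23628 genes with edgeR 4.0.16's quasi-likelihood test (prior count 0.125, Benjamini-Hochberg adjustment, threshold 0.05) in R 4.3.3. The fit was tested on simulated data with known changes. DESeq2 1.42.0, limma 3.58.1 (voom) and other settings were alternatives. Exact binomial intervals came from scipy 1.17.1. Gene order, exon overlap and lengths came from GENCODE M21 (GRCm38), and no gene coordinates are given from it. The members, lists and tests were chosen with earlier results of these data known. Named genes were the 10 members, Evx1, the 3 other Hox genes with the highest means, called genes of each list (up to 8), flanking genes, the 5 genes most like Evx2 and those near 0 in the wild type and present in the double knockout. Tal2, Sox14 and Gata3 come from the marker lists. Some genes of these lists are not reported here by name. Replicate numbers were not used as pairs.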

Additional observations from a re-analysis of the deposited data

How the results depend on the processing

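With no filter on low counts, 20 of the Hoxa, Hoxb, Hoxc and Evx1 genes could be fitted, and none was called by edgeR. The Evx2 log2 fold change of 7.84 was 8.09 in DESeq2, 6.12 with a prior count of 2, and 7.32 to 10.51 in the fits that left out a library, the highest without wild-type replicate 2. Its ratio of summed reads, 272, ranged from 119 (a lower bound, without wild-type replicate 2) to 291, an alternative chosen after seeing the data. With the replicate block the Evx2 value was 7.85 and 690 genes were called in place of 634, and 0 of 6 libraries correlated best with the library of their own number, and the residuals of libraries that share a number correlated at -0.0694, -0.0022 and 0.0018, so the block is not read as a pairing. DESeq2 called 1168 genes, 4 cofactors (all lower) and 4 chromosome neighbours, of which 1, Itga6, was also called by edgeR. A covariate for Y-linked expression left 358 genes and 1 cofactor called. Leaving out a library gave 309 to 749 genes, 1 to 3 cofactors, 2 to 4 chromosome neighbours and 2 to 4 genes absent in the wild type and present in the double knockout. The count of called genes was 309, 325 and 403 without wild-type replicates 1, 2 and 3 and 380 and 402 without double knockout replicates 1 and 2. Total count scaling gave 390 higher and 256 lower genes in place of 317 and 317, and 1 cofactor. A minimum mean of 1 CPM left 1 chromosome neighbour, since Platr26 was not tested there. The absent and present rule gave 1 gene with at least 50 reads and 0 with no wild-type read. The 24 single genes fitted had 331 values under alternatives, of which 310 kept their side of the threshold, 11 lost it, 10 gained it and none changed direction. At this depth, Hoxd levels below 3 reads per library cannot be told from 0. The cause of these changes was not tested.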
